A study of Caenorhabditis elegans with 18 samples.

Results

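The comt genes of Caenorhabditis elegans encode proteins related to catechol-O-methyltransferase. This enzyme moves a methyl group from S-adenosylmethionine onto a hydroxyl of a catechol ring. In mammals it inactivates dopamine and other catecholamines together with the monoamine oxidases, and it also methylates dietary and xenobiotic catechols. In worms dopamine is made from tyrosine in a small set of neurons. The worm genes carry the name by similarity, and which compounds each product methylates is not something RNA levels measure.

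The family was taken as the 5 genes with a comt symbol, comt-1 to comt-5, of 47020 genes in the expression tables. All 5 passed the filter for low values, a value above 0 in all 6 groups, as did 18479 genes in all. The family was chosen by its group values in all 5 tables, so no difference of a comt gene is tested and its values are a description.

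The libraries came from N2 wild-type worms, whole animals, fed bacteria that express double-stranded RNA from the L1 larval stage. There were 6 groups of 3 libraries. Bacteria with an empty vector gave control(RNAi), and bacteria against ints-4 or numr-1/2 gave the other RNAi arms. Every arm had a group that was moved to 300 μM cadmium at late L3 and kept there for 12 h, and a group that was moved to plates with none. The methods of the study place collection at late L4 to young adult, while the submitters' design text speaks of gravid young adults. numr-1 and numr-2 are identical copies whose product resembles splicing factors, and ints-4 encodes a subunit of integrator, the complex that processes small nuclear RNAs.

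The authors deposited 1 scaled value per gene and group, the mean of 3 libraries. Each value is a sum of 3 whole read numbers, each divided by a library's scale factor. The read number of each library could be solved from it for all 5 comt genes and for 96.8% to 98.4% of the detected genes of a group. The libraries of a group carry no number in these sums, so their reads are given from low to high. Group values are the deposited ones, each with the SD over the 3 scaled libraries, and a fold is the ratio of deposited values within 1 table. Whether the libraries of a comt gene overlap between groups is given as a description. The share of all genes whose libraries are separate in this way is not given here, so such separation does not set a comt gene apart from other genes.

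As facts of the whole series, the deposited values of a group summed to between 33749100 and 38210200. The ints-4 reads were 1334 to 1663 per library in control(RNAi) and 578 to 727 in ints-4(RNAi). The copies of numr-1/2 were low without cadmium, at 9 to 39 and 1 to 5 reads in control(RNAi) and 19 to 43 and 0 to 3 in numr-1/2(RNAi), so they do not check the labels of these libraries. With cadmium they were at 133 to 152 and 108 to 420 reads in control(RNAi), and at 49 to 70 and 47 to 66 in numr-1/2(RNAi). Reads of identical copies may be split between them or left uncounted. In whole animals, fewer cells of a type and less RNA per cell cannot be told apart.

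In the WBcel235 annotation, 4 of the comt genes lie on chromosome V and comt-1 lies on X. comt-4 (WBGene00021491, V from 2049217 to 2050185, minus strand), comt-5 (WBGene00021492, V from 2052226 to 2053609, minus strand) and comt-3 (WBGene00021487, V from 2057537 to 2061136, plus strand) stand within 11.92 kb of each other. comt-2 (WBGene00012518) is at 16493453 to 16494489 on the minus strand of V. comt-1 (WBGene00018741) is at 2858063 to 2862472 on the minus strand of X. The coding length was 681 bases for comt-4 and for comt-5, 678 for comt-3 and 651 for comt-2. comt-1 was longer, with a coding length of 1902 bases over 11 exons, where each of the others had 4. comt-3 has 2 annotated transcripts and each of the others has 1.

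Some comt exons overlap genes on the other strand, and the sources used here do not say whether reads were counted by strand. comt-3 shares 31 exon bases with nhr-86, a nuclear hormone receptor gene, comt-1 shares 99 with the noncoding F53B3.8 and comt-4 shares 90 with the noncoding Y40B10A.10. Y40B10A.10 had no read in any group. nhr-86 had means of 882 to 1016 scaled reads in all 6 groups, including those in which comt-3 was highest. The reads of comt-3, comt-4 and comt-5 could also be shared between similar sequences, which was not tested.

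Cadmium in control(RNAi) worms gave 3 kinds of pattern among the comt genes. comt-4 went from a few reads to 344 or more, comt-3 was several-fold higher from a higher start, and comt-1 was lower. comt-4 had 2, 3 and 6 reads in the control(RNAi) libraries and 344, 380 and 478 with cadmium. The deposited values were 3.75 ± 2.32 and 391 ± 65.4 (SD, n = 3 each), a 104-fold difference. Only 11 reads in all stand behind the lower value, and counting error alone leaves a ratio between 58.5 and 211 (95% interval, exact). Without the control(RNAi) library with 6 reads, the log2 ratio was 7.33 in place of 6.71. Its log2 ratio was the fourth highest of the 18479 genes.

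comt-3 had 349, 369 and 479 reads without cadmium and 2555, 2601 and 3114 with it. Its values were 399 ± 44.1 and 2695 ± 348 (SD, n = 3 each), 6.76-fold higher, with every cadmium library above every other. comt-5 had 105, 126 and 156 reads without cadmium and 252, 256 and 270 with it, which is 1.96-fold. The libraries of comt-5 did not overlap, and the ratio fell just short of 2-fold. comt-2 had 8, 12 and 13 reads without cadmium and 13, 16 and 35 with it, 1.90-fold by the group values with libraries that met at 13 reads. Without the library with 35 reads its log2 ratio was 0.35 in place of 0.93.

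comt-1 went the other way. Its reads were 118, 121 and 137 without cadmium and 90, 93 and 96 with it, and the group value was 71.9% of control, with no overlap. By the fold threshold of 2, 2 comt genes were higher, comt-3 and comt-4, where 10.9% of all genes were. None was lower, against 6.51% of all genes. Without 1 of the control(RNAi) libraries the count was 4, since comt-2 and comt-5 then passed 2-fold. The median log2 ratio of the family was 0.97 and that of all 18479 genes was -0.01. In the same libraries all 6 vitellogenins were at least 2-fold lower with cadmium, with summed deposited values of 98886 without it and 15060 with it. Of 12 oocyte and embryo markers 6 were lower, as was 1 of 8 epidermis markers, and none of these was higher. Of 8 intestine markers 1, mtl-2, was higher and 1, elt-7, was lower. The part of these lists in the comt values was not tested.

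**Figure D1:**
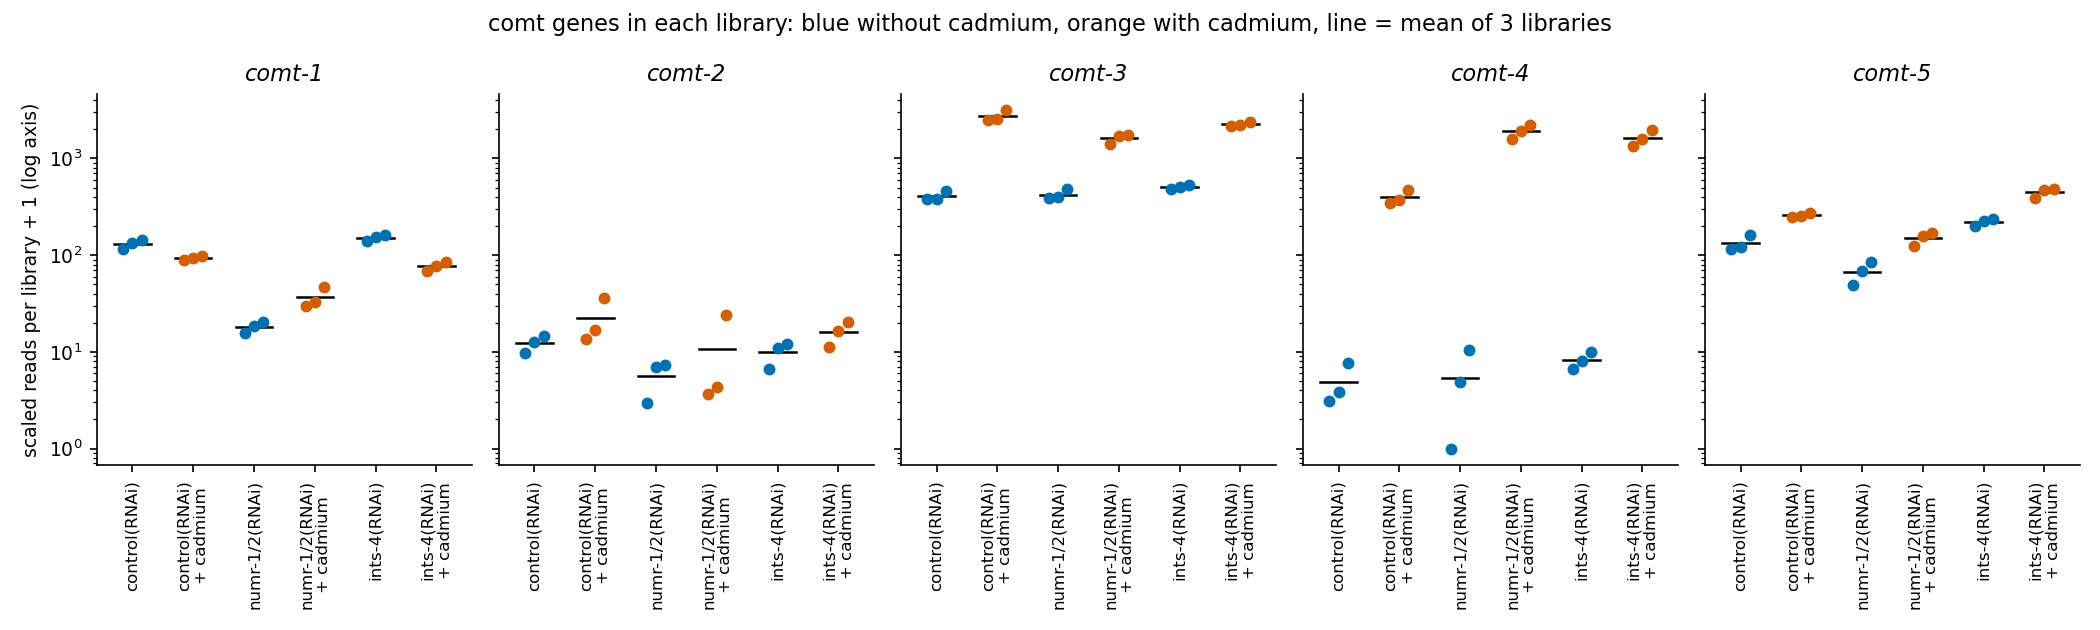
Scaled reads plus 1 of each comt gene in each library (log axis), on 1 scale for all 18 libraries, by group on the x axis; points are libraries, lines are means of 3, orange marks cadmium. comt-4 stands at 0 to 9.35 scaled reads in every library without cadmium and at 347 to 2237 with it, and comt-1 is lowest in numr-1/2(RNAi).

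The comparison of numr-1/2(RNAi) with control(RNAi), both without cadmium, concerns numr-1/2 dsRNA in unstressed worms, in which the reads of the targeted genes were not clearly lower. Here comt-1 differed most. It had 118, 121 and 137 reads in control(RNAi) and 14, 18 and 20 in numr-1/2(RNAi). The values were 126 ± 14.4 and 16.9 ± 2.55 (SD, n = 3 each), 13.4% of control. Its log2 ratio was -2.90, at place 115 from the lowest of 18479 genes.

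comt-5 was also lower, with 50, 69 and 81 reads against 105, 126 and 156, or 50.7% of control. comt-2 had 2, 6 and 6 reads against 8, 12 and 13, or 42.0% of control, with a counting interval of the ratio from 0.203 to 0.787. In both genes every numr-1/2(RNAi) library was below every control library. comt-3 and comt-4 showed no such separation, at 1.04-fold and 1.14-fold of control with overlapping libraries. comt-4 had 0, 4 and 9 reads in numr-1/2(RNAi). With 1 library left out its log2 ratio ran from -0.98, without the library with 9 reads, to 0.84, and that of comt-3 ran from -0.03 to 0.15, so neither has a settled direction.

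Thus 2 comt genes, comt-1 and comt-2, were at least 2-fold lower after numr-1/2(RNAi), where 10.4% of all genes were, and none was higher, where 9.69% were. Leaving out 1 library in turn gave 1 to 3 genes, the lowest without the numr-1/2(RNAi) library that had 2 comt-2 reads. Other lists moved in the same libraries. Of 8 intestine markers 1 was at least 2-fold higher and 1 lower, and 2 of 8 neuron markers were lower. Of 8 epidermis markers, 7 were at least 2-fold lower and 1, the adult collagen gene col-19, was higher. fbn-1, which encodes a fibrillin-like matrix protein, fell by 3.94 on the log2 scale (limma, adjusted p = 1.18e-07). All 6 vitellogenins, all 11 measured sperm markers and 9 of 12 oocyte and embryo markers were at least 2-fold higher. Their summed deposited values were 98450 and 387954 for the vitellogenins, 21117 and 55163 for the sperm list and 183402 and 104126 for the epidermis list, in control(RNAi) and numr-1/2(RNAi), and no gene of these lists was at 0. Their part in the comt values was not tested.

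In ints-4(RNAi) without cadmium, comt-1, comt-2 and comt-5 were closer to control than in numr-1/2(RNAi), while comt-3 and comt-4 were not. comt-5 had 195, 223 and 252 reads, all above the control libraries, and was 1.67-fold higher. comt-3 had 475, 535 and 537 reads and was 1.25-fold higher, also with no overlap on the scale of the table. comt-1 (148, 152 and 157 reads, 1.17-fold), comt-2 (6, 10 and 11 reads, 80.3% of control) and comt-4 (6, 7 and 9 reads, 1.90-fold) had libraries that overlapped those of control(RNAi). No comt gene reached 2-fold, while 12.5% of all genes were at least that much higher and 9.27% lower. Without either of 2 libraries, 1 of control(RNAi) and 1 of ints-4(RNAi), comt-4 passed 2-fold on these few reads. In the same libraries 5 of 6 vitellogenins, 6 of 12 oocyte and embryo markers, 2 of 8 epidermis markers and 2 of 8 intestine markers were at least 2-fold lower, and none was higher. The summed deposited value of the vitellogenins was 99037 in control(RNAi) and 18516 in ints-4(RNAi). The part of these lists in the comt values was not tested.

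Cadmium given to numr-1/2(RNAi) worms was the comparison in which the most comt genes were higher. All 5 were at least 2-fold higher, where 12.4% of all genes were, and none was lower, where 6.16% were. comt-4 had 0, 4 and 9 reads without cadmium and 1935, 2143 and 2440 with it, or deposited values of 4.59 ± 4.87 and 2062 ± 321 (SD, n = 3 each). The ratio was 449, the highest of all 18479 genes, and counting error alone leaves 259 to 831. These bounds rest on the 13 reads without cadmium and leave out the spread between libraries. The log2 ratio, 8.81, was 9.99 without the library with 9 of those reads and 8.23 without the library with none.

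comt-3 had 402, 408 and 461 reads without cadmium and 1701, 1903 and 1917 with it, 3.94-fold. comt-5 had 50, 69 and 81 reads and then 137, 173 and 204, 2.31-fold. Neither gene's libraries overlapped. comt-1 had 14, 18 and 20 reads and then 32, 35 and 56, 2.13-fold higher and without overlap, opposite to its direction in control(RNAi).

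comt-2 rested on 1 library. It had 2, 6 and 6 reads without cadmium and 3, 4 and 25 with it, a ratio of 2.09. Without the library with 25 reads, the log2 ratio was -0.60 in place of 1.07. The epidermis list also moved here, with 6 of 8 genes at least 2-fold higher and 1 lower, while all 6 vitellogenins and 6 of 12 oocyte and embryo markers were at least 2-fold lower. Of 8 intestine markers 1, cpr-1, was higher and none was lower. The part of these lists in the comt values was not tested.

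Cadmium in ints-4(RNAi) worms again gave the highest ratios in comt-4 and then comt-3. comt-4 had 6, 7 and 9 reads without cadmium and 1305, 1541 and 1847 with it, from 7.10 ± 1.67 to 1596 ± 319 (SD, n = 3 each). This ratio of 225, with a counting interval of 149 to 360, was again the highest of all 18479 genes. comt-3 had 475, 535 and 537 reads and then 2111, 2168 and 2223, 4.44-fold. comt-5 had 195, 223 and 252 reads and then 378, 451 and 460, 2.04-fold.

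comt-1 had 148, 152 and 157 reads and then 66, 74 and 79, at 50.6% of its value without cadmium and with no overlap. comt-2 had 6, 10 and 11 reads and then 10, 15 and 18, 1.67-fold with libraries that overlapped. So 3 comt genes were at least 2-fold higher, where 5.53% of all genes were, and none was lower, where 4.1% were. Leaving out 1 library in turn gave 2 to 4 genes, since comt-1 and comt-5 stand close to the threshold. Of the marker lists, 2 of 6 vitellogenins and 3 of 8 epidermis markers were at least 2-fold lower in the same libraries. Of 8 intestine markers 1, mtl-2, was higher and none was lower. The part of these lists in the comt values was not tested. All these comparisons share groups with one another and are not independent.

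**Figure D2:**
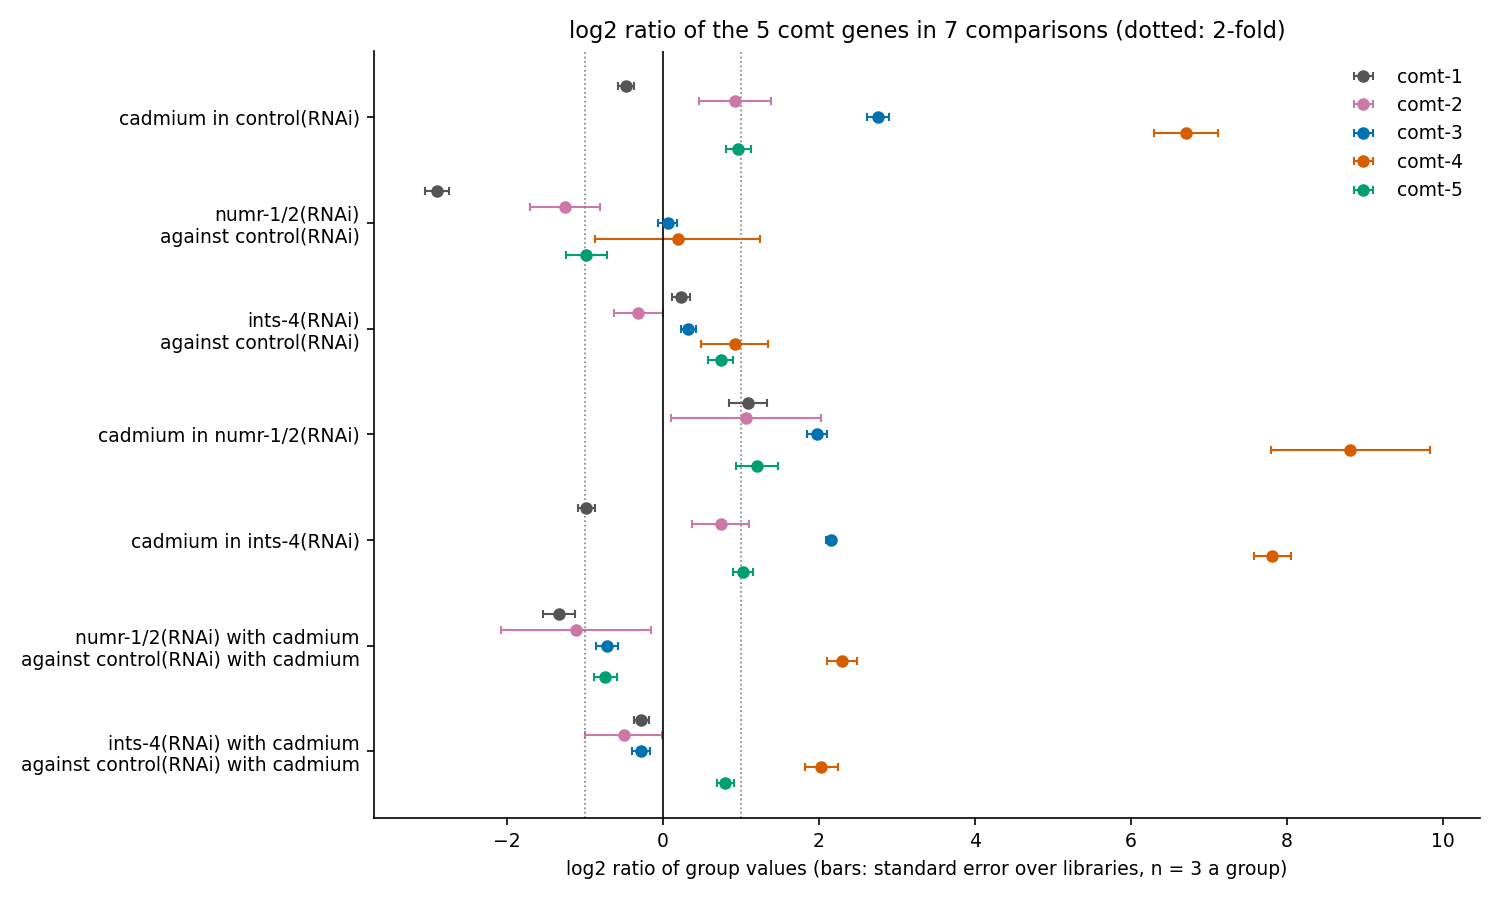
log2 ratio of group values (x axis) for the 5 comt genes in 7 comparisons (y axis), with bars for the standard error over libraries (n = 3 a group) and dotted lines at 2-fold. comt-4 lies at 6.71, 8.81 and 7.81 in the cadmium comparisons, and comt-1 at -2.90 in numr-1/2(RNAi) against control(RNAi).

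**Figure D3:**
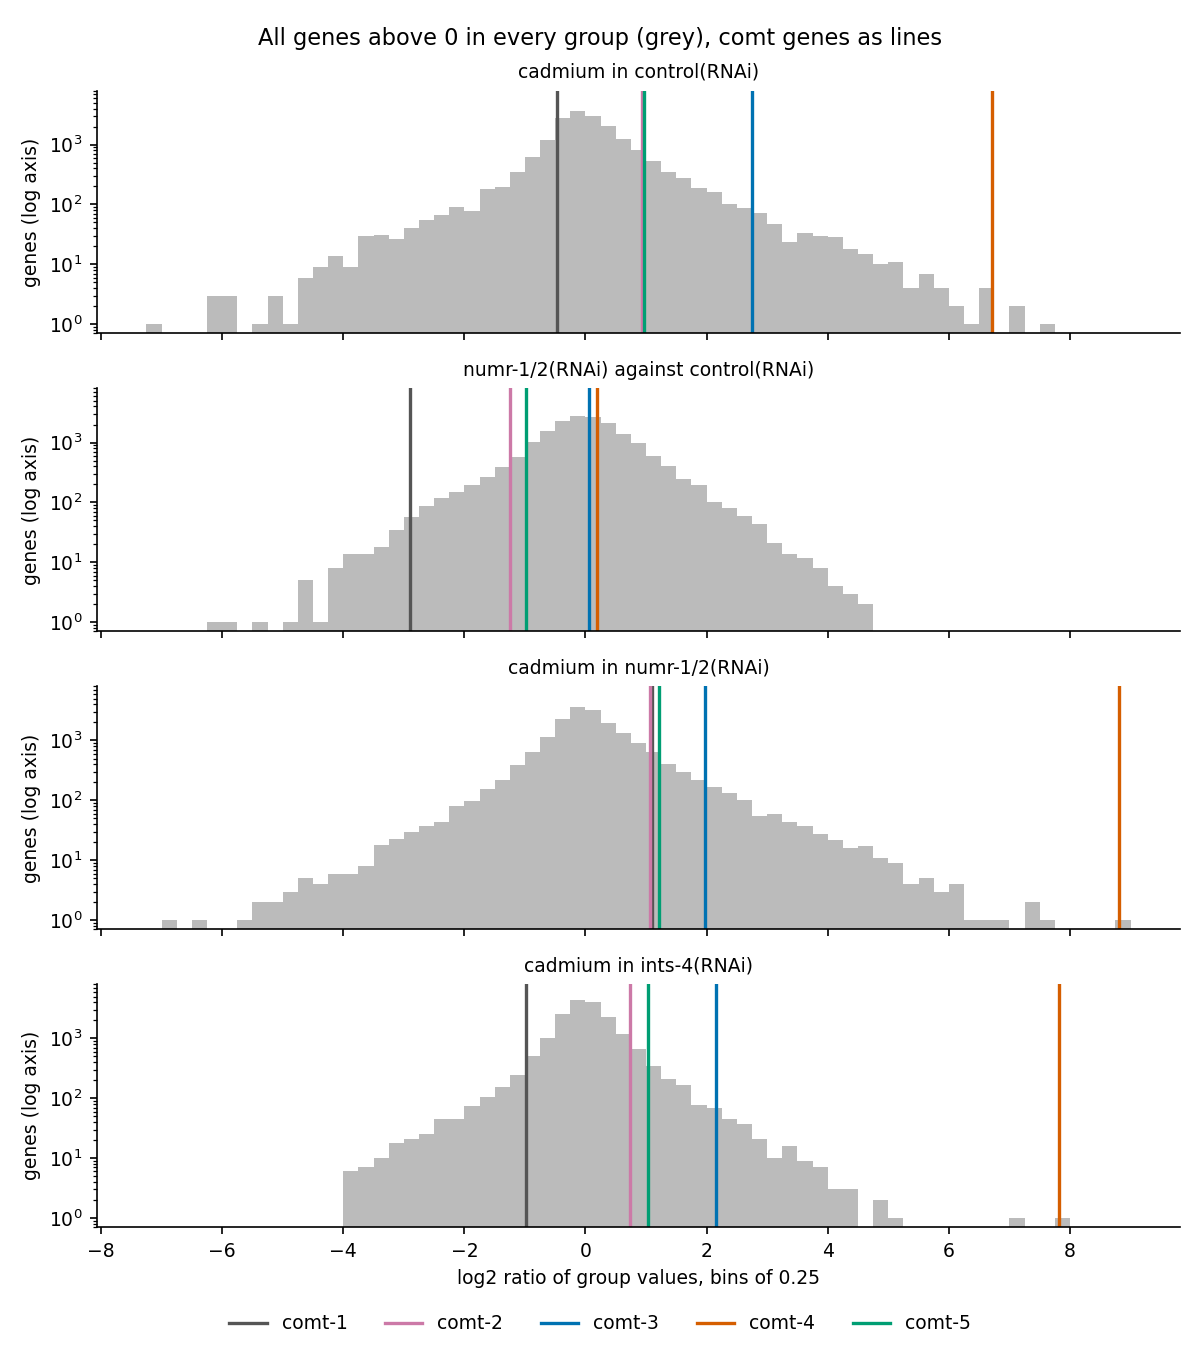
Number of genes (log axis) by log2 ratio in bins of 0.25, for the 18479 genes above 0 in every group, with the comt genes as coloured lines in 4 comparisons. comt-4 is the highest of all genes in both RNAi groups given cadmium, while comt-2 and comt-5 lie on the shoulder near 2-fold.

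No table holds 2 cadmium groups together, so the RNAi groups with cadmium were compared with control(RNAi) with cadmium through the 3 log2 ratios that link them. comt-4 was higher in both RNAi groups, by 4.92-fold in numr-1/2(RNAi) and 4.09-fold in ints-4(RNAi). On 1 scale for all 18 libraries its levels with cadmium were 396 ± 66.7 scaled reads in control(RNAi), 1629 ± 315 in ints-4(RNAi) and 1916 ± 319 in numr-1/2(RNAi) (SD, n = 3 each). The libraries of the RNAi groups overlapped each other, and both lay above all control(RNAi) libraries.

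comt-3 did not follow comt-4 there. Its levels with cadmium were 2730 ± 357 in control(RNAi), 2253 ± 101.0 in ints-4(RNAi) and 1621 ± 187 in numr-1/2(RNAi) (SD, n = 3 each), in the reverse order and with no overlap between these groups. comt-5 was highest in ints-4(RNAi) with cadmium, at 447 ± 50.9, then in control(RNAi) with cadmium at 257 ± 14.01, and lowest of the 3 in numr-1/2(RNAi) with cadmium at 150 ± 24.3. comt-1 had its highest level of the 3 in control(RNAi) with cadmium, at 92.0 ± 4.65, then 75.9 ± 8.12 in ints-4(RNAi) and 35.6 ± 9.36 in numr-1/2(RNAi). comt-2 was at 21.2 ± 12.3, 14.9 ± 4.45 and 9.63 ± 11.5 in the same order, with libraries that overlapped throughout.

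In numr-1/2(RNAi) with cadmium, 1 comt gene was at least 2-fold higher than in control(RNAi) with cadmium, where 10.2% of all genes were, and 2, comt-1 and comt-2, were lower, where 7.48% were. In ints-4(RNAi) with cadmium, 1 was higher, where 10.6% of all genes were, and none was lower, where 9.25% were. The gene that was higher was comt-4 in both. Vitellogenins were all at least 2-fold higher in numr-1/2(RNAi) with cadmium than in control(RNAi) with cadmium, as were 11 of 12 oocyte and embryo markers and all 11 sperm markers. Of 8 epidermis markers, 4 were lower there and 1 was higher. In ints-4(RNAi) with cadmium, 5 of 8 epidermis markers, 2 of 6 vitellogenins and 2 of 12 oocyte and embryo markers were lower, and none of these was higher. Their part in the comt values was not tested.

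Within the 6 groups, the order of levels differed between the genes. For comt-1 it ran from numr-1/2(RNAi), at 17.2 ± 2.40 scaled reads, to ints-4(RNAi), at 150 ± 10.7, and only the highest pair, control(RNAi) and ints-4(RNAi), had libraries that overlapped. For comt-5 it ran from numr-1/2(RNAi), at 66.7 ± 18.04, to ints-4(RNAi) with cadmium. In that order, control(RNAi), at 133 ± 25.1, and numr-1/2(RNAi) with cadmium did not differ beyond their spread. For comt-3 the lowest pair, control(RNAi) at 408 ± 45.2 and numr-1/2(RNAi) at 422 ± 49.0, overlapped, and each later step was apart. For comt-4 the 3 groups without cadmium overlapped, between 3.85 ± 2.41 and 7.25 ± 1.70. For comt-2 every neighbour in the order overlapped (SD, n = 3 for each value).

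Levels of different genes were compared as scaled reads per kb of exon. In control(RNAi), comt-3 stood at 471 per kb, comt-5 at 176, comt-1 at 63.1, comt-2 at 12.6 and comt-4 at 4.72. With cadmium, comt-4 was second at 486 per kb, behind comt-3 at 3145. The sum over the 5 genes was 727 ± 44.9 per kb in control(RNAi) and 4041 ± 407 with cadmium (SD, n = 3 each).

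The makeup of this sum changed with treatment. comt-4 gave 0.667% ± 0.460 of it in control(RNAi) and 12.2% ± 2.62 with cadmium (SD, n = 3 each). In ints-4(RNAi) its share was 0.918% ± 0.195 without cadmium and 37.9% ± 3.23 with it. In numr-1/2(RNAi) it was 0.851% ± 0.833 without cadmium and 52.7% ± 1.87 with it, where comt-3 gave 42.1% ± 1.85 (SD, n = 3 each). This was the only group in which comt-4 passed comt-3 in mean level per kb, and it did so in all 3 libraries. The share of comt-1 without cadmium was 8.72% ± 1.28 in controls and 1.44% ± 0.376 in numr-1/2(RNAi) worms (SD, n = 3 each).

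**Figure D4:**
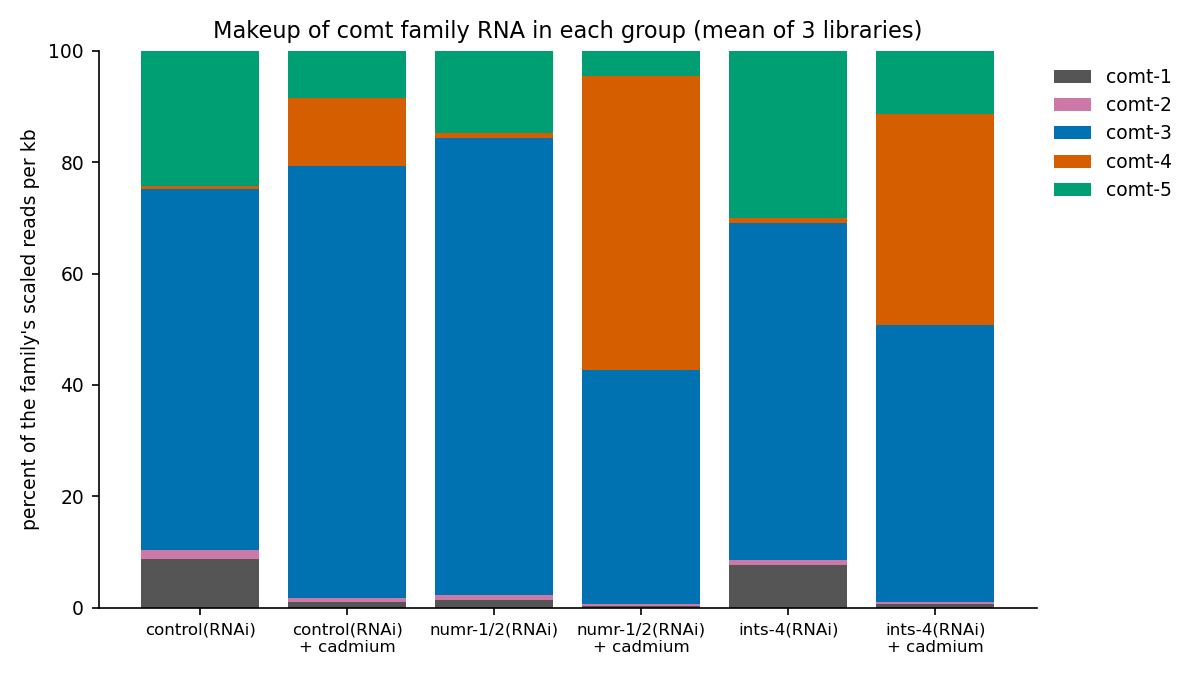
Percent of the summed scaled reads per kb of the 5 comt genes (y axis) that each gene gave in each group (x axis), as means of 3 libraries. comt-3 gives 64.7% in control(RNAi), and comt-4 gives 12.2%, 52.7% and 37.9% in the cadmium groups, in the order control(RNAi), numr-1/2(RNAi), ints-4(RNAi).

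comt-4, comt-5 and comt-3 are neighbours, and the genes just outside them were measured too. On the right, nhr-86 had a limma log2 ratio of 0.15 ± 0.09 (standard error) for cadmium in control(RNAi), with adjusted p = 0.245, and lbp-9, which encodes a lipid-binding protein, had 0.22 ± 0.14, with adjusted p = 0.251. On the left, Y40B10A.5 had 2, 3 and 3 reads in control(RNAi), and its log2 ratio of deposited values for cadmium was 2.04 there, between those of comt-5 and comt-3. The ratio was 0.31 in numr-1/2(RNAi) and -0.52 in ints-4(RNAi), where its libraries with and without cadmium overlapped. Its libraries with cadmium in control(RNAi) could not be solved, so the spread behind 2.04 is not known. srab-23, a chemoreceptor gene, had none in any group. Y40B10A.11, between comt-4 and comt-5, was not analysed here.

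comt-1 had a neighbour that changed in the same direction in numr-1/2(RNAi) and with cadmium in numr-1/2(RNAi). F53B3.6, on the plus strand, begins 1756 bases from the start of comt-1, which is on the minus strand, so the genes point away from each other. F53B3.6 had 2101 to 2750 reads in control(RNAi) and 625 to 739 in numr-1/2(RNAi). It fell by 1.87 on the log2 scale (limma, adjusted p = 7.82e-12) and rose 1.77-fold with cadmium in numr-1/2(RNAi) (limma, adjusted p = 1.86e-07). Its ratio for cadmium in control(RNAi), where comt-1 was lower, was 1.10-fold (limma, adjusted p = 0.182). For cadmium in ints-4(RNAi), the log2 ratio of deposited values was 0.03 for F53B3.6 and -0.98 for comt-1. On the other side, tra-4, a zinc finger gene, was at 0.833 of control in numr-1/2(RNAi) (adjusted p = 0.102), and kin-29, a kinase gene, was at 0.696 (adjusted p = 0.0303, limma). The next gene beyond F53B3.6, F53B3.3, was 1.80-fold higher in numr-1/2(RNAi) (limma, adjusted p = 0.00176). Around comt-2, Y32B12A.5 had no read in any group, sqst-4 and srh-136 had means of at most 3.29 scaled reads, and F36D3.1 was at 0.667 of control in numr-1/2(RNAi) (limma, adjusted p = 0.00476).

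**Figure D5:**
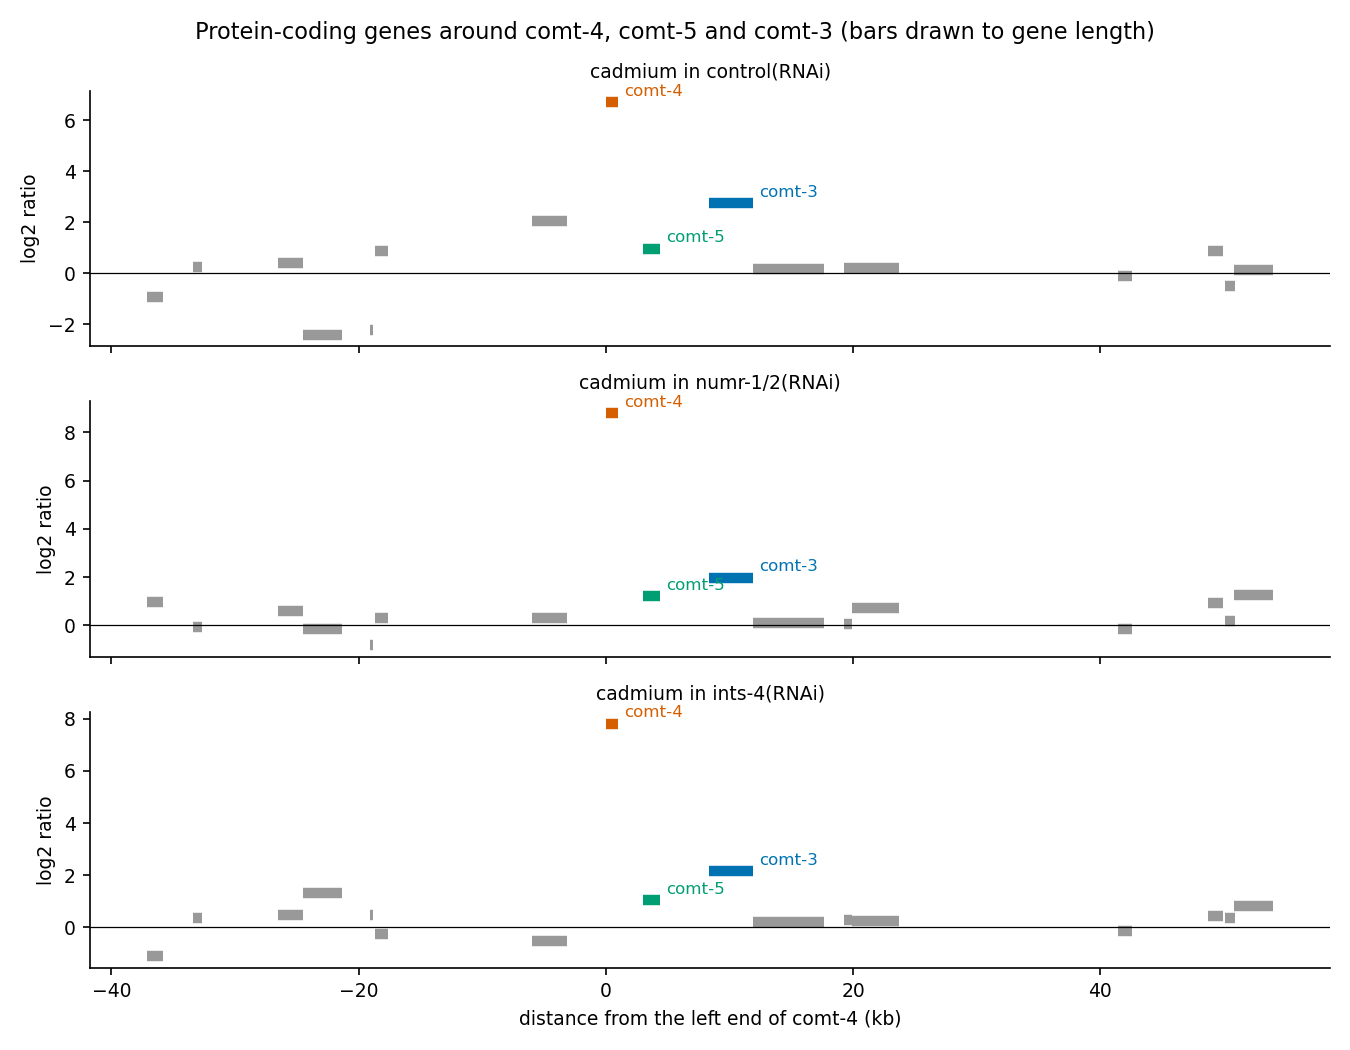
log2 ratio for cadmium (y axis) of protein-coding genes by distance in kb from the left end of comt-4 (x axis), 1 panel for each RNAi arm. The comt genes are coloured and other genes are grey. Bars have the length of the gene, and genes at 0 in any group are left out. comt-4 lies at 6.71, 8.81 and 7.81 for the control, numr-1/2 and ints-4 arms, and nhr-86, just right of comt-3, at 0.17, 0.11 and 0.19.

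The genes nearest to each comt gene in pattern were taken by the distance between their 5 log2 ratios, over 16982 candidates with a value of at least 10 in some group. Nearest to comt-1 were idpp-1, F55C10.4 and T08G2.2, at distances of 0.55, 0.56 and 0.62. idpp-1 had 4114 to 4663 reads in control(RNAi) and 678 to 725 in numr-1/2(RNAi). For comt-5 they were F13D11.3, T02B11.4 and the chitinase-like gene chil-5 at 0.32, 0.39 and 0.41, and for comt-2 T08A9.13 and the nuclear hormone receptor genes nhr-44 and nhr-59 at 0.14, 0.36 and 0.38.

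The genes nearest to comt-3 and comt-4 lay farther away. The distance is not scaled, so genes with large ratios tend to lie far from others. Those of comt-3 were Y17G7B.23, nspg-3 and cest-32, a carboxylesterase-like gene, at 0.72, 0.73 and 0.74. The 3 genes nearest to comt-4 were far from it, cdr-1 at 2.92, gst-38 at 3.91 and F09C6.3 at 5.30. Some of these distances rest on few reads, as for comt-4 without cadmium. Y17G7B.23 had 1, 1 and 9 reads in control(RNAi), and F09C6.3 had 1, 1 and 4 in numr-1/2(RNAi). cdr-1 is a cadmium-responsive gene and gst-38 encodes a glutathione S-transferase. Of its own family, comt-3 was nearest to comt-4, at 9.73 and place 149 among the candidates. Within the family, comt-2 and comt-5 were nearest to each other, at 1.14.

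Around the family in amine metabolism, at most 3 genes of a list were called in any comparison. These genes were tested with limma across all 18 libraries, and a gene was called at an adjusted p below 0.05 and a fold of at least 2. Of 9 genes of biogenic amine synthesis, cadmium in control(RNAi) raised 2 and lowered 1, where 6.52% of all 16032 genes tested were called higher and 3.82% lower. cat-4, GTP cyclohydrolase, which starts synthesis of the tetrahydrobiopterin cofactor, had 1108, 1112 and 1342 reads without cadmium and 3523, 3876 and 3903 with it. It rose 3.05-fold (adjusted p = 3.84e-11, limma). ptps-1, the next enzyme of that route, rose 2.23-fold (adjusted p = 1.49e-06, limma). tdc-1, tyrosine decarboxylase, fell to 0.462 of control (adjusted p = 3.27e-07, limma).

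In ints-4(RNAi) worms cadmium also raised cat-4, 2.52-fold (adjusted p = 2.07e-09), and ptps-1, 3.36-fold (adjusted p = 2.93e-08), and lowered tbh-1, tyramine beta-hydroxylase, to 0.490 (adjusted p = 0.000162, limma). Over all genes 2.54% were called higher and 1.09% lower. In numr-1/2(RNAi) worms only tph-1, tryptophan hydroxylase, was called of this list, 4.77-fold higher with cadmium (adjusted p = 0.0012, limma) on 2 to 49 reads, against 7.86% called higher and 3.72% lower over all genes. cat-4 was 1.63-fold higher there, under the 2-fold threshold. Whether these cadmium ratios differ between RNAi groups was not tested.

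cat-2, tyrosine hydroxylase, which makes the dopamine precursor, stood apart in ints-4(RNAi). It had 40, 41 and 44 reads in control(RNAi) and 990, 1056 and 1325 in ints-4(RNAi). It was 25.03-fold higher (adjusted p = 8.36e-10, limma) and the only 1 of 9 genes of its list called, where 8.13% of all genes were called higher and 7.29% lower. With cadmium it had 640, 786 and 791 reads in ints-4(RNAi) and 38, 76 and 77 in control(RNAi). bas-1, the decarboxylase that completes dopamine synthesis, did not reach 2-fold in any of the 5 comparisons. In numr-1/2(RNAi), tbh-1 rose 3.94-fold (adjusted p = 2.85e-08) and tph-1 fell to 0.387 of control (adjusted p = 0.0292, limma), where 6.35% of all genes were called higher and 6.64% lower.

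Of 7 genes of amine transport and breakdown, 6 were tested, and at most 1 was called in any comparison, beside the shares of all genes given above for each. With cadmium in control(RNAi) it was 1 lower, against 3.82% of all genes. amx-3, an amine oxidase gene, fell to 0.447 of control with cadmium in control(RNAi) (adjusted p = 8.49e-05) and to 0.328 in ints-4(RNAi) (adjusted p = 1.51e-06, limma). mod-5, the serotonin transporter, fell to 0.441 in numr-1/2(RNAi) (adjusted p = 0.000538) and rose 2.51-fold there with cadmium (adjusted p = 0.000168, limma). dat-1, the dopamine transporter, was not called in any of the 5 comparisons. Of 6 dopamine receptor genes, only dop-4 was called, lower in each cadmium comparison, where 3.82% of all genes were called lower in control(RNAi), 3.72% in numr-1/2(RNAi) and 1.09% in ints-4(RNAi). Cadmium lowered it to 0.193 of control in control(RNAi) (adjusted p = 4.63e-08), to 0.149 in numr-1/2(RNAi) (adjusted p = 5.59e-09) and to 0.421 in ints-4(RNAi) (adjusted p = 0.000236, limma).

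The list of the S-adenosylmethionine cycle holds enzymes that make and recycle this methyl donor and the transsulfuration enzymes, which draw homocysteine out of the cycle. Of 13 genes, 8 could be tested, and none was called higher in the 5 comparisons. With cadmium in control(RNAi), 2 were called lower, against 3.82% of all genes. mtrr-1, methionine synthase reductase, fell to 0.431 with cadmium in control(RNAi) (adjusted p = 5.21e-08) and to 0.471 with cadmium in numr-1/2(RNAi) (adjusted p = 1.75e-07, limma). cth-1, the transsulfuration enzyme cystathionine gamma-lyase, fell to 0.480 with cadmium in control(RNAi) (adjusted p = 1.3e-06) and to 0.404 in ints-4(RNAi) without it (adjusted p = 6.18e-08, limma). sams-1, an S-adenosylmethionine synthetase, had reads that could not be solved in every group and was not tested. Its reads were 19029 to 23120 in control(RNAi) and 12240 to 15028 in ints-4(RNAi). Of 8 other methyltransferase genes, 6 were tested, and only pcm-1, a protein methyltransferase, was called, 2.21-fold higher with cadmium in numr-1/2(RNAi) (adjusted p = 0.000117, limma), where 7.86% of all genes were called higher.

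Other enzyme families that modify foreign compounds are larger. With cadmium in control(RNAi), limma called 15 of 40 glutathione S-transferases higher and 1 lower, 10 of 63 UDP-glucuronosyltransferases higher and 8 lower, and 10 of 66 cytochrome P450 genes higher and 10 lower, where 6.52% of all genes tested were called higher and 3.82% lower. The median log2 ratios of these lists were 0.66, 0.05 and 0.24, beside -0.04 over all genes tested. With 5 genes and no test of its own, the comt family cannot be ranked against these families.

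In the splicing tables, made by the authors with rMATS, 3 of 18785 events lay in a comt gene, and all 3 were the same skipped exon of comt-3. The exon runs from 2060729 to 2060862 on V, 134 bases, and is an annotated exon in WBcel235. Its inclusion level was 99.5% to 100% in every library of the 6 column sets, with 0 to 5 skipping reads per set. These sets repeat libraries. A set of the control(RNAi) cadmium comparison and a set of the comparison labelled ints-4 with cadmium had the same reads, 1943, 1987 and 2332. In the expression tables, cadmium in ints-4(RNAi) shares no group with cadmium in control(RNAi). The splicing comparison with that label therefore appears to pair other groups. No comt event came from the numr-1/2 comparisons, so the sets do not cover all 6 groups. The column sets carry no group name that could be matched to the labels, so these levels were compared with no group. At levels this close to 100% no use of the shorter form beyond a few reads was detectable.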

How the data were processed

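Whole-animal RNA was enriched with oligo(dT) and sequenced in 18 libraries. The submitters' processing notes name HISAT2 2.1.0, HTSeq 0.6.1 and Cufflinks 2.1.1, and the sources used here give no genome build for the alignment. Gene positions are from the WBcel235 annotation. The deposited expression values are a signal that the authors made from read counts by scaling the libraries within each of 5 tables and averaging the 3 libraries of a group. The tables also hold the authors' fold changes and p-values, made with DEGSeq, which were not used.

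Because each deposited value is a sum of 3 whole read numbers times 3 constants, reads per library were solved by lattice reduction. Tested on data simulated from the reads of solved genes, 99.5% to 99.8% of genes were solved and 100% of those were right. Genes that could not be solved had no part in that test, so it does not give the rate for them. Reads of a group found in separate tables were identical for 99.99% to 100% of genes. Unsolved genes were mostly the most abundant, and solved genes hold 41.9% to 54.3% of the summed value. The libraries are separate biological samples, and intervals cover counting error only.

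The single-step whole-read test that would allow a count model did not apply to a mean of 3 libraries. Log2 ratios of deposited values, at a fold of at least 2, were the main measure, as planned. limma 3.58.1 (R 4.3.3) was added after the data were seen, on log2 of scaled reads plus 1, with a trended prior, for 16032 genes with at least 10 reads in at least 3 libraries. It was used only for genes outside the family. Adjusted p are by Benjamini-Hochberg. The scale for all 18 libraries is the median ratio to geometric means, and its factors ran from 0.911 to 1.21. Tested on simulated data for cadmium in control(RNAi) with 16032 genes, limma recovered 95% of genes changed 2-fold and 100% of those changed 4-fold. Of its calls there, 7.58% were unchanged genes. That test called genes by adjusted p alone, without the 2-fold condition, and used a common dispersion of 0.0124. Its rates therefore do not describe the calls given here, which also ask for a fold of at least 2. Other computations used Python 3.11.15, NumPy 2.4.6 and pandas 2.3.3.

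Named genes are the comt genes, the 3 nearest to each in pattern, 2 protein-coding neighbours on either side, and the genes of each list with the highest and lowest ratio. cat-4, ptps-1, bas-1, dat-1, sams-1 and cat-2 with cadmium, and fbn-1, were also named after their values were seen. The members and lists were chosen with earlier results of these data known. A planned exact permutation test of splicing levels was not run, since the splicing columns could not be matched to groups.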

Additional observations from a re-analysis of the deposited data

Results flagged for a closer look

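comt-1 moved in opposite directions with cadmium in numr-1/2(RNAi) and in control(RNAi), in every library. In control(RNAi) the log2 ratio was -0.48, from 118 to 137 reads down to 90 to 96. In numr-1/2(RNAi) it was 1.09, from 14 to 20 reads up to 32 to 56, and the difference between these log2 ratios was 1.57. The difference was not tested, since the gene was chosen with these values known. Even with cadmium, every numr-1/2(RNAi) library stayed below every control(RNAi) library. Marker lists moved in the same libraries. Of 8 epidermis markers, 7 were at least 2-fold lower in numr-1/2(RNAi) and 1 higher, where 10.4% of all genes were lower and 9.69% higher. With cadmium in numr-1/2(RNAi), 6 were at least 2-fold higher and 1 lower, where 12.4% of all genes were higher and 6.16% lower. With cadmium in control(RNAi), 0 of 8 were higher and 1 lower. All 6 vitellogenins were higher in numr-1/2(RNAi) and lower with cadmium in each of these arms. The part of these lists in the comt-1 values was not tested.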

How the results depend on the processing

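Of the alternative values of comt log2 ratios, 241 moved by less than the spread between libraries, 3 moved by more and 1, of a ratio past 2-fold, turned sign. Among those 241, ratios near 0 also turned sign with 1 library left out: in numr-1/2(RNAi), comt-4 ran from -0.98 to 0.84 and comt-3 from -0.03 to 0.15. The log2 ratio of comt-4 with 1 library left out ran from 6.41 to 7.33 for cadmium in control(RNAi) and from 8.23 to 9.99 for cadmium in numr-1/2(RNAi). With a pseudocount of 5 the log2 ratio of comt-4 was 5.50 for cadmium in control(RNAi) and 7.05 for cadmium in ints-4(RNAi), and that of comt-1 was -2.58 in numr-1/2(RNAi). The ratio of comt-2 for cadmium in numr-1/2(RNAi) ranged from -0.60 to 1.51 with 1 library left out, and turned sign without the library with 25 reads. Counts of comt genes past the threshold were small and moved more. For cadmium in control(RNAi) the count was 4 with ratios centred on the median of genes from a value of 100 and 4 at 1.5-fold, in place of 2, and 2 to 4 with 1 library left out. For numr-1/2(RNAi) it was 1 with a pseudocount of 5 and 1 at 4-fold, in place of 2, and 1 to 3 with 1 library left out. For ints-4(RNAi) it was 2 at 1.5-fold, in place of 0, and 0 to 1 with 1 library left out. For cadmium in numr-1/2(RNAi) it was 3 with a pseudocount of 5 and 1 at 4-fold, in place of 5, and 4 to 5 with 1 library left out. For cadmium in ints-4(RNAi) it was 5 at 1.5-fold, in place of 3, and 2 to 4 with 1 library left out. The log2 ratios between cadmium groups moved by less than the spread between libraries on both other scales. The share of all genes changed at least 2-fold was 15.96% for cadmium in ints-4(RNAi) with genes above 0 in that table only, in place of 9.62%. By limma, which also asks for an adjusted p below 0.05, the shares were 10.34% for cadmium in control(RNAi), 12.99% for numr-1/2(RNAi), 11.6% for cadmium in numr-1/2(RNAi) and 3.64% for cadmium in ints-4(RNAi), in place of 17.5%, 20.1%, 18.6% and 9.62%. Leaving out libraries, limma and 1 of the scales were added after the data were seen. No paired analysis was possible because the recovered libraries carry no replicate number. Reads under 10, as for comt-4 without cadmium and for comt-2, limit how well a ratio is known.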
